A study of Mus musculus with 8 samples.

Results

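Cd44 and 9 other genes that make, bind or break down hyaluronan were followed in 8 mouse peritoneal tumours. They were chosen by name from the deposited gene table as synthases (Has1, Has2, Has3), hyaluronidases (Hyal1, Hyal2), receptors (Cd44, Hmmr, Lyve1) and binding proteins (Vcan, Tnfaip6), a rule that uses no threshold on their values. These were 10 of the 35275 genes in the table, and each was found once.

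All 8 tumours came from a conditional model in which both alleles of Nf2, which encodes the tumour suppressor merlin, and of Cdkn2a, which encodes the cell cycle inhibitors p16 and p19Arf, carry loxP sites. An adenovirus that expresses Cre recombinase was injected into the peritoneal cavity, and the labels give every tumour as lacking both genes. The 3 wild-type primary tumours, numbered 19, 20 and 127, had normal Pak2, which encodes p21-activated kinase 2. The 4 primary tumours labelled Pak2-null, numbered 13, 14A, 59 and 61, and the secondary tumour 14B, with the same label, also carried floxed Pak2. The labels give no age or sex, and do not say that each tumour came from its own animal, so p-values measure the spread between these samples, which may be partly technical. Cre reached whichever cells the virus entered, so host cells in a tumour keep the genes. The study asked how loss of Pak2 affects tumours that lack Nf2.

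Hyaluronan is a very large, unsulphated sugar polymer of glucuronic acid and N-acetylglucosamine. The Has enzymes build it at the plasma membrane from UDP-sugars and push it out into the matrix. Cd44 is its main receptor and passes signals to the cytoskeleton through ezrin, radixin and moesin, the relatives of merlin. Merlin itself binds the Cd44 tail, and mesothelium, the lining of the peritoneum from which mesothelioma arises, is a known source of hyaluronan.

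Total counts per tumour ran from 13469851 to 20402401, and values below are CPM, counts scaled to TMM-adjusted library sizes over the genes that passed the filter on low counts. In 14B these genes held 11141192 of 13469851 counts, and 1 count there is 0.104 CPM, against 0.0464 to 0.0642 CPM in the primary tumours. A count of 0 allows a level of up to 3 counts, which is 0.139 to 0.193 CPM in the primary tumours and 0.311 CPM in 14B, for counting error only. Pak2 itself went against its label: it read 128, 90.1 and 92.7 CPM in wild-type tumours 19, 20 and 127 and 186, 238, 165 and 131 CPM in 13, 14A, 59 and 61. Nf2, which the labels give as lost in every tumour, was at 74.6 to 142 CPM in the 8 tumours. Tumours 14A and 14B stood apart from the rest. Their summed markers were 19026 and 138914 CPM for exocrine pancreas, against 5.14 to 45.8 CPM in the other 6 tumours, and 1893 and 3019 CPM for fibroblasts, against 13487 to 19731 CPM. Skeletal muscle markers summed to 1833 to 19235 CPM in the wild-type and 8.86 to 484 CPM in the Pak2-null-labelled primary tumours. Markers of mesothelium (10 genes) summed to 10.3 to 360 CPM over the 8 tumours, with at most 1 of the 10 at 0. Xist, transcribed from the inactive X chromosome, was at 26.6 CPM or more in the wild-type tumours and at 1.33 CPM or less in the others. Y-linked Ddx3y was at 1.62 and 1.24 CPM in 19 and 20, at 116 CPM in 127 and at 84.2 to 104 CPM in 13, 14A, 59, 61 and 14B, so wild-type tumour 127 shared this transcript with those labelled Pak2-null. The part of sex in the results was not tested.

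Cd44 was the member whose groups of primary tumours did not overlap. Has1, Vcan and Tnfaip6 also had higher means in the tumours labelled Pak2-null, with wide spread, while Hyal2, Hmmr and Lyve1 had near-equal means. Each fold change below is a log2 difference, labelled Pak2-null minus wild-type primary tumours, from edgeR, whose p-values were adjusted by the Benjamini-Hochberg method across the 15412 genes tested. All 10 members passed the filter on low counts. The difference was positive for 8 and negative for 2, with a median of 0.30 against 0.06 over all genes tested. No member passed an adjusted p of 0.05 (0 of 10), and 0.0714% of all genes did. At an unadjusted p under 0.05 there were 2 members, Cd44 and Has1, both higher, where 12.9% of all genes passed in either direction and 4.39% were higher. The groups did not overlap for 1 member, Cd44, and for 14% of all genes, 5.07% with the Pak2-null-labelled tumours higher.

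**Figure D1:**
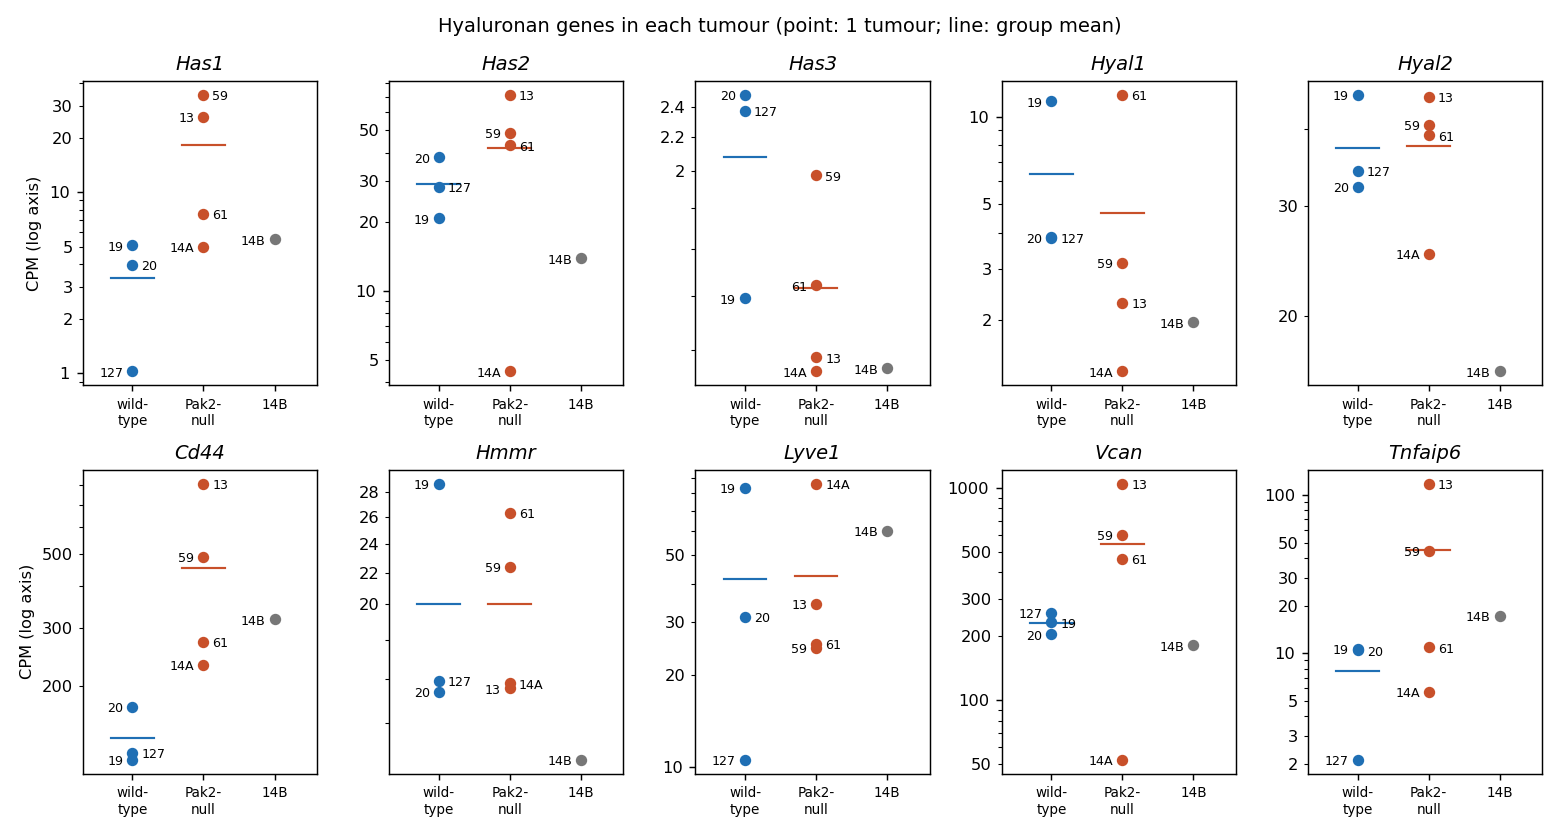
CPM of each of the 10 genes in every tumour on a log axis, with 1 point per tumour and a line at the group mean; secondary tumour 14B is shown on its own. For Cd44 all 4 Pak2-null-labelled primary tumours, at 232 to 810.1 CPM, lie above the 3 wild-type tumours, at 121 to 174 CPM.

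The promoters of Cd44, Has1 and Tnfaip6, the members with the lowest p-values, are shown because these genes also varied together across tumours. They are RefSeq sequence of build GRCm38.p6, written 5′ to 3′ on the strand of the gene and ending at the base before the deposited gene model starts. For Cd44 the window is chr2:102901666-102901915 on the minus strand, for Has1 chr17:17855189-17855438 on the minus strand, and for Tnfaip6 chr2:52037863-52038008 on the plus strand. Capitals mark the AP-1 motif TGANTCA, in which N is any base.
Cd44: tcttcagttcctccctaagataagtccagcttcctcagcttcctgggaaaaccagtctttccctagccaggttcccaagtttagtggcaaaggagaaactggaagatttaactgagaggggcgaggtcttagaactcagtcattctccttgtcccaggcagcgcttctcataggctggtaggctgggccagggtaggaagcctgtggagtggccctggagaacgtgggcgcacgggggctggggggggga
Has1: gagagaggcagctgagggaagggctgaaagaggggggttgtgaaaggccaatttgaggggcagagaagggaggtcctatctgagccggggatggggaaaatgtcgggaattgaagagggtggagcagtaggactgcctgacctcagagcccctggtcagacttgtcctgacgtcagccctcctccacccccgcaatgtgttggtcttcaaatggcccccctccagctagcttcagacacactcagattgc
Tnfaip6: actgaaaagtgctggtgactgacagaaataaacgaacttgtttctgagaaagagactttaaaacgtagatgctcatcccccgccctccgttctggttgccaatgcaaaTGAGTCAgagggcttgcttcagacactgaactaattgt
RefSeq windows of 250 bases before to 50 bases after the start were searched on both strands for 7 of the 10 members. TGANTCA was in 1 of the 7, that of Tnfaip6, beginning 142 bases before the RefSeq start, which lies inside the deposited gene model, and in 7.81% of all 32851 promoters. The TEAD motif GGAATG was in the windows of Tnfaip6 and Hyal2 and in 14.7% of all promoters. The TCF motif CTTTGA was in none of the 7 and in 16% of all promoters. These are matches of letters, not sites shown to be used.

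Has1, Has2 and Has3 encode the 3 membrane synthases. Has2 is the main synthase of the embryo, where its loss leaves the heart without endocardial cushions. Has2 (ENSMUSG00000022367, chromosome 15, 56665627 to 56694539) read 20.7, 38.1 and 28.4 CPM in wild-type tumours 19, 20 and 127. It read 71.3, 4.47, 48.6 and 43.1 CPM in tumours 13, 14A, 59 and 61, and 13.9 CPM in 14B. Tumours 13, 59 and 61 lay above every wild-type tumour and 14A below all of them. The means were 29.1 ± 8.71 CPM (SD, n = 3) and 41.9 ± 27.8 CPM (SD, n = 4), with a log2 fold change of 0.55 (SE 0.76, adjusted p = 0.799).

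Has1 (ENSMUSG00000003665, chromosome 17, 17843328 to 17855188) was at 5.10, 3.97 and 1.03 CPM in tumours 19, 20 and 127. In tumours 13, 14A, 59 and 61 it was at 26.1, 4.99, 34.4 and 7.57 CPM, and in 14B at 5.49 CPM. The groups overlapped only where 14A lay just under tumour 19, and 13 and 59 stood well above the rest. The means were 3.37 ± 2.10 and 18.3 ± 14.3 CPM, a log2 fold change of 2.46 (SE 0.88) that did not pass adjustment in edgeR (adjusted p = 0.292). DESeq2 did pass it, at an adjusted p of 0.0436, among the 5.26% of its genes called.

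Has3 (ENSMUSG00000031910, chromosome 8, 106870242 to 106884566) was the scarcest member per length. It had 1.39, 2.48 and 2.37 CPM in the wild-type and 1.18, 1.13, 1.97 and 1.44 CPM in the Pak2-null-labelled primary tumours, from 19 to 40 counts each, and 1.14 CPM in 14B. The groups overlapped, with a log2 fold change of −0.52 (SE 0.45, adjusted p = 0.670). Has3 shares 704 bases with Chtf8 on the other strand, which had 940 or more counts in every tumour, and without a stated strand setting the reads of the pair cannot be told apart.

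To compare the 3 synthases with each other, CPM was divided by gene length in kilobases. On that scale Has2 held 64.6%, 79.5% and 88.3% of the synthase transcripts in wild-type tumours 19, 20 and 127. It held 57%, 29.1%, 40.6% and 72.5% in tumours 13, 14A, 59 and 61. Has1 made up nearly all the remainder: 32.2%, 16.8% and 6.46% in the wild-type tumours and 42.3%, 65.7%, 58.2% and 25.8% in those labelled Pak2-null. Has2 was thus the larger of the pair in all 3 wild-type tumours and in 13, 61 and 14B, and Has1 in 14A and 59. The mean Has1 share was 18.5% ± 13.0 (SD, n = 3) against 48% ± 17.7 (SD, n = 4), a difference of 29.5 percentage points (exact permutation p = 0.0857, two-sided). Leaving out each tumour in turn gave 23.5 to 36.9 points. The summed synthase level per length was 8.83 ± 2.15 and 18.9 ± 12.4 CPM per kilobase (exact permutation p = 0.314). Adjusted over the 7 exact tests of shares and summed levels of the synthases and hyaluronidases, the p for the Has1 share was 0.400. These shares were chosen after the data had been seen.

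**Figure D2:**
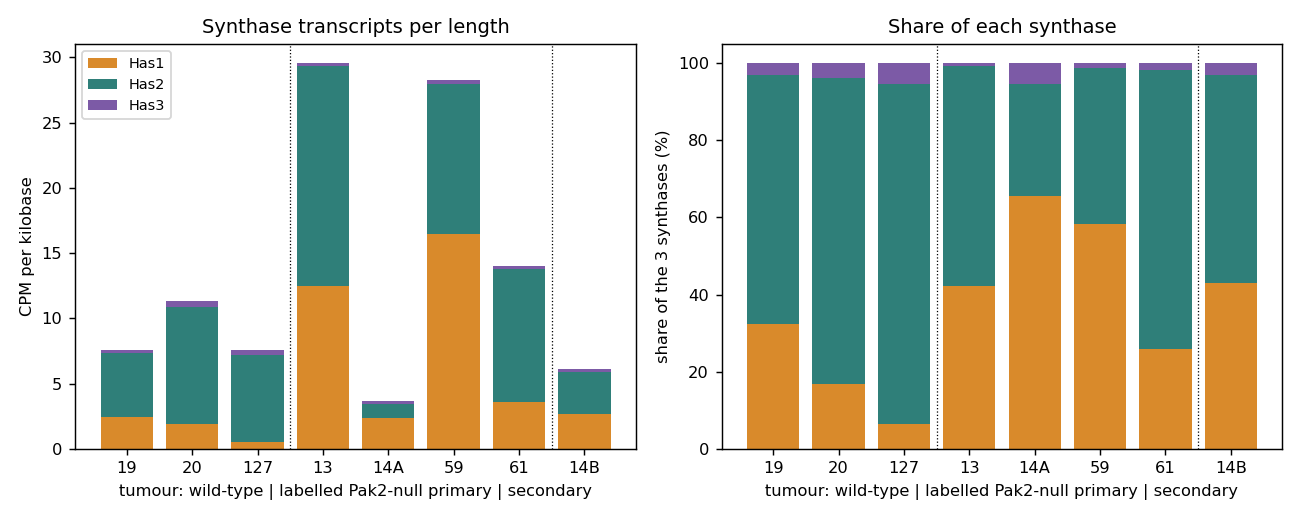
Left, stacked level of each synthase per length (CPM per kilobase) in each of the 8 tumours; right, its share of the summed synthase level in percent, with dotted lines between the wild-type, Pak2-null-labelled primary and secondary tumours. The Has1 share runs from 6.46% to 32.2% in the wild-type and from 25.8% to 65.7% in the Pak2-null-labelled primary tumours.

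Hyal2 is a surface-anchored hyaluronidase that starts the breakdown of long chains, and Hyal1 is the lysosomal enzyme that cuts the fragments further. Hyal2 (ENSMUSG00000010047, chromosome 9, 107569117 to 107572776) was among the steadiest members, with 45.3, 32.3 and 34.2 CPM in wild-type and 45.0, 25.1, 40.6 and 39.0 CPM in Pak2-null-labelled primary tumours. The groups overlapped throughout, and the log2 fold change was 0.03 (SE 0.26, adjusted p = 0.976). Hyal1 (ENSMUSG00000010051, chromosome 9, 107576927 to 107581710) was at 11.3, 3.85 and 3.85 CPM in tumours 19, 20 and 127 and at 2.29, 1.34, 3.15 and 11.9 CPM in tumours 13, 14A, 59 and 61. It was high in 1 tumour of each group, 19 and 61, and its log2 fold change was −0.43 (SE 0.83, adjusted p = 0.857). The value was −1.46 without tumour 61 and 0.28 without tumour 19. Mesothelial markers were also highest in 19 and 61 among the primary tumours, at 302 and 360 CPM. In secondary tumour 14B they summed to 248 CPM, where Hyal1 was at 1.97 CPM. Their part in the Hyal1 values was not tested. Nat6, a gene that shares 2824 bases with Hyal1 on the same strand, was also highest in 19 and 61 among the primary tumours. It had 382 and 333 counts there, against 124 to 219 in the other primary tumours. Hyal1 made up 6.60% to 13.5% of the pair's transcripts per length in the wild-type and 3.10% to 16.1% in the Pak2-null-labelled primary tumours (exact permutation p = 0.543).

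Cd44 (ENSMUSG00000005087, chromosome 2, 102811141 to 102901665) read 121, 174 and 127 CPM in wild-type tumours 19, 20 and 127. It read 810.1, 232, 489.9 and 272 CPM in tumours 13, 14A, 59 and 61, and 318 CPM in 14B. Every tumour with the Pak2-null label was above every wild-type tumour, and 13 was the highest by a wide margin. The means were 140.3 ± 29.2 and 451 ± 265 CPM, and the log2 fold change was 1.71 (SE 0.50). In edgeR the difference did not pass adjustment (adjusted p = 0.190). DESeq2 (adjusted p = 0.0207) and limma-voom with sample quality weights (adjusted p = 0.0419) did pass it, calling 5.26% and 6.16% of their genes, and limma-voom without weights, which called 0.162%, did not. The fold change stayed between 1.26, without tumour 13, and 1.93, without 14A, when each tumour was left out. The annotation GENCODE M21 lists 9 Cd44 transcripts, 8 of them coding, and counts per gene do not separate the standard from the variant isoforms. Cd44 is made by fibroblasts, leukocytes and many tumour cells, and in bulk tissue fewer cells of a type and less RNA per cell cannot be told apart. Leukocyte and lymphocyte markers (7 genes, none from the macrophage list) summed to 81.7 CPM in tumour 13, the lowest of all 8. They summed to 1910 CPM in 14A, where Cd44 was the lowest of its group. Ptprc made up 79.2 and 1585 CPM of these sums. The 10 macrophage markers summed to 3216 CPM in 13 and 8679 CPM in 14A, against 1233 to 2828 CPM in the wild-type tumours. In 59 and 61 they summed to 3546 and 2349 CPM. The part of these cells in the result was not tested.

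Hmmr encodes RHAMM, a hyaluronan-binding protein that also sits on the mitotic spindle. Hmmr (ENSMUSG00000020330, chromosome 11, 40701395 to 40733422) was at 28.7, 15.4 and 15.9 CPM in the wild-type and 15.5, 15.8, 22.4 and 26.3 CPM in the Pak2-null-labelled primary tumours. The groups overlapped and the means were equal, with a log2 fold change of 0.02 (SE 0.34, adjusted p = 0.989). Tumour 19, the highest for Hmmr, was also the highest for the 10 cell division markers, at 897 CPM against 286 to 597 CPM in the other tumours. The next highest sum, 597 CPM, was in 14A, where Hmmr was at 15.8 CPM. In 59 and 61, with Hmmr at 22.4 and 26.3 CPM, the markers summed to 451 and 489 CPM. Mki67 alone was at 250 CPM in 14A, its highest, against 103 and 111 CPM in 59 and 61. The other markers were mixed in 14A. Among the Pak2-null-labelled primary tumours Bub1 and Kif11 were highest there, and Tpx2 and Birc5 lowest. The part of cell division in the Hmmr values was not tested.

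Lyve1 is a hyaluronan receptor of lymphatic endothelium and of some tissue macrophages. Lyve1 (ENSMUSG00000030787, chromosome 7, 110850607 to 110862953) was at 83.3, 31.2 and 10.5 CPM in tumours 19, 20 and 127, at 34.5, 86.1, 24.7 and 25.5 CPM in 13, 14A, 59 and 61, and at 60.2 CPM in 14B. It was high in 19, 14A and 14B and lowest in 127, and the groups overlapped (log2 fold change 0.05, SE 0.73, adjusted p = 0.984). Leaving out 14A gave −0.54 and leaving out 19 gave 1.03. The lymphatic regulator Prox1 was highest in 127, at 61.8 CPM, while the lymphatic markers (5 genes) summed to the most in 59, at 349 CPM, where Lyve1 was low. They summed to 270.9 CPM in 127, to 170 CPM in 19 and to 105 CPM in 14A, the lowest. Pdpn, 1 of the 5, was at 283 CPM in 59 and at 20.9 CPM in 14A, its lowest. The others were mixed in 14A: Mmrn1 was the highest of all tumours there, at 31.9 CPM. Prox1 and Reln were at 13.9 and 14.1 CPM in 14A, and Flt4, at 24.5 CPM, was among its lowest. The resident macrophage gene Timd4 was highest in 14A and 14B, at 25.8 and 16.6 CPM, and 0.0578 to 5.84 CPM in the other tumours. The macrophage scavenger receptor Cd163 was highest in 19, at 166 CPM, and among the lowest in 14A and 14B, at 11.9 and 17.8 CPM. The 10 macrophage markers summed to 8679 CPM in 14A, 8163 CPM in 14B and 1233 to 3546 CPM elsewhere. C1qa, C1qb and C1qc gave 2259, 2973 and 2031 CPM of the sum in 14A. Adgre1 and Cd68 were also highest in 14A and 14B, and Csf1r, at 368 and 438 CPM, was not. Mrc1 was at 48.8 CPM in 14A, its lowest, and at 383 CPM in 19. Folr2 was at 16.8 CPM in 14A, 24.3 CPM in 14B and 99.1 CPM in 19, its highest. Cd163, Mrc1 and Folr2 thus did not follow the sum. The part of these cells in the Lyve1 values was not tested.

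Versican, the product of Vcan, is a large chondroitin sulphate proteoglycan whose head binds hyaluronan. Vcan (ENSMUSG00000021614, chromosome 13, 89655312 to 89742509) read 232, 204 and 259 CPM in tumours 19, 20 and 127. It read 1049, 52.4, 601 and 464 CPM in tumours 13, 14A, 59 and 61, and 181 CPM in 14B. As for Has2, tumours 13, 59 and 61 lay above all wild-type tumours and 14A below them. The means were 232 ± 27.4 and 542 ± 411 CPM, with a log2 fold change of 1.25 (SE 0.82, adjusted p = 0.572). Like those of Cd44, the versican isoforms are not separated by these counts.

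Tnfaip6 encodes TSG-6, an inflammation-induced protein that moves heavy chains of inter-alpha-inhibitor onto hyaluronan. Tnfaip6 (ENSMUSG00000053475, chromosome 2, 52038009 to 52056686) was at 10.7, 10.4 and 2.12 CPM in tumours 19, 20 and 127. It was at 118, 5.70, 44.4 and 10.9 CPM in 13, 14A, 59 and 61, and at 17.2 CPM in 14B. It varied the most of all members, 55.8-fold from the lowest to the highest of the 8 tumours, where Has3 varied 2.20-fold. Tumours 13 and 59 were high, 61 was level with the wild-type tumours 19 and 20, and 14A was lower than these. The log2 fold change was 2.56 (SE 1.14, adjusted p = 0.408), and 1.42 without tumour 13.

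**Figure D3:**
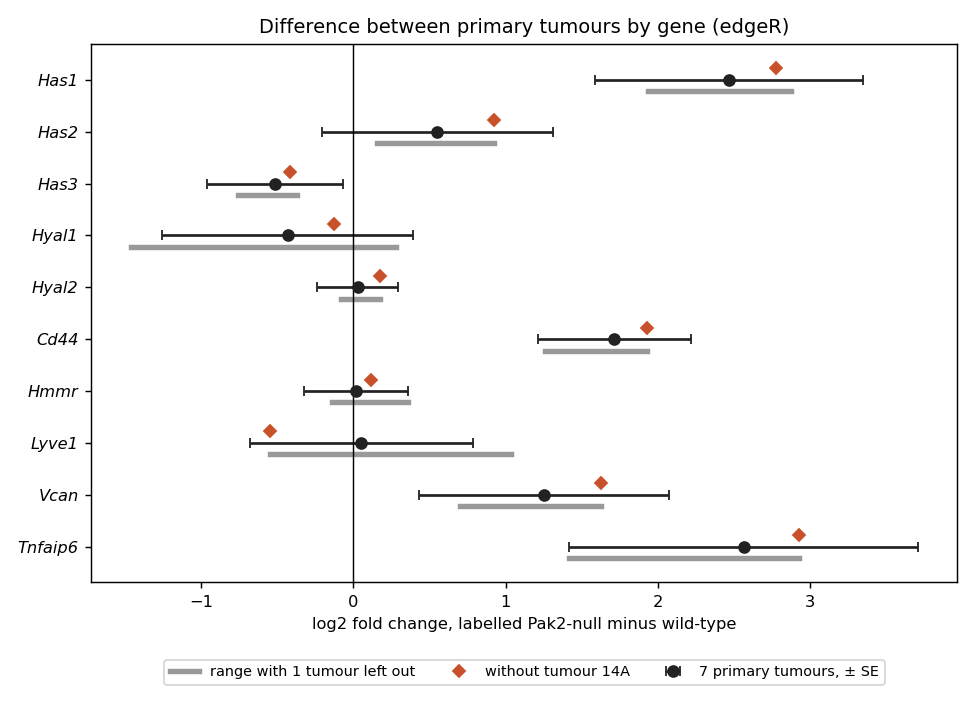
log2 fold change of each gene, labelled Pak2-null minus wild-type primary tumours, as black points with bars for the standard error, from edgeR; diamonds show the fit without tumour 14A and grey bars the range with 1 tumour left out. Without 14A, Vcan moves from 1.25 to 1.63, Has2 from 0.55 to 0.93 and Lyve1 from 0.05 to −0.54.

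Tumour 14A was the lowest primary tumour for 5 of the 10 members, and 13 was the highest for 4: Cd44, Has2, Vcan and Tnfaip6. Because 14A stood apart in its pancreas, leukocyte and fibroblast markers, the comparison was repeated without it, which leaves 3 tumours against 3. Then 5 members had an unadjusted p under 0.05, all higher in the tumours labelled Pak2-null, where 16.9% of all genes passed in either direction and 6.8% were higher. The log2 fold changes were then 1.93 for Cd44, 1.63 for Vcan, 2.77 for Has1, 2.93 for Tnfaip6 and 0.93 for Has2. The same 5 had groups that did not overlap, as did 23.2% of all genes, 10.4% with the Pak2-null-labelled tumours higher. None passed adjustment in edgeR, with adjusted p = 0.111 for Vcan, 0.112 for Cd44, 0.144 for Has1, 0.195 for Tnfaip6 and 0.205 for Has2, and 8 genes (0.053%) did. Without 14A the mean of Vcan in tumours 13, 59 and 61 was 705 ± 306 CPM and that of Has2 was 54.4 ± 14.97 CPM. Collagen gene Col1a1, a fibroblast product, was at 425 CPM in 14A and at 5550 to 10386 CPM in the other 6 primary tumours, and its part in the low Vcan and Has2 was not tested.

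Per length, Cd44 had the highest mean of the members in both groups, at 25.0 ± 5.20 and 80.3 ± 47.2 CPM per kilobase. In wild-type tumours Hyal2, Vcan, Lyve1, Has2, Hmmr, Tnfaip6, Hyal1, Has1 and Has3 followed in that order. In the Pak2-null-labelled primary tumours the order was Vcan, Tnfaip6, Hyal2, Lyve1, Has2, Has1, Hmmr, Hyal1 and Has3. Most neighbours in these orders differed by less than the larger of their SDs. The gap was larger for 2 of 9 neighbouring pairs in the wild-type group, Cd44 over Hyal2 and Has1 over Has3. In the other group it was larger for 1 of 9, Hmmr over Hyal1. In wild-type tumour 19 alone, Cd44, at 21.5 CPM per kilobase, lay below Lyve1 at 31.9 and Hyal2 at 24.0.

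Secondary tumour 14B is a single sample, so its values carry no test. On the log2 scale (14B minus 14A) its largest differences from 14A were 1.79 for Vcan, 1.61 for Has2 and 1.57 for Tnfaip6. Those for Hyal1, Cd44, Has1 and Has3 were 0.52, 0.45, 0.14 and 0.01, and those for Hyal2, Lyve1 and Hmmr were −0.62, −0.51 and −0.33. Its Hyal2, at 16.3 CPM, was the lowest of the 8 tumours, as was its Hmmr, at 12.5 CPM. With exocrine pancreas markers at 138914 CPM, 14B was the tumour richest in pancreatic transcripts, and the part of this in its values was not tested.

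Across the 8 tumours some members varied alike. Has2 and Vcan had a Pearson r of 0.940 on log2 CPM, and Has1 and Tnfaip6 one of 0.923. Cd44 had 0.884 with Tnfaip6 and 0.860 with Has1. Lyve1 had −0.721 with Has3, −0.614 with Has2 and −0.495 with Vcan, but −0.002 with Cd44, 0.161 with Tnfaip6 and 0.182 with Has1. These describe 8 tumours that share libraries, cell makeup and labels, so they carry no p-value.

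**Figure D4:**
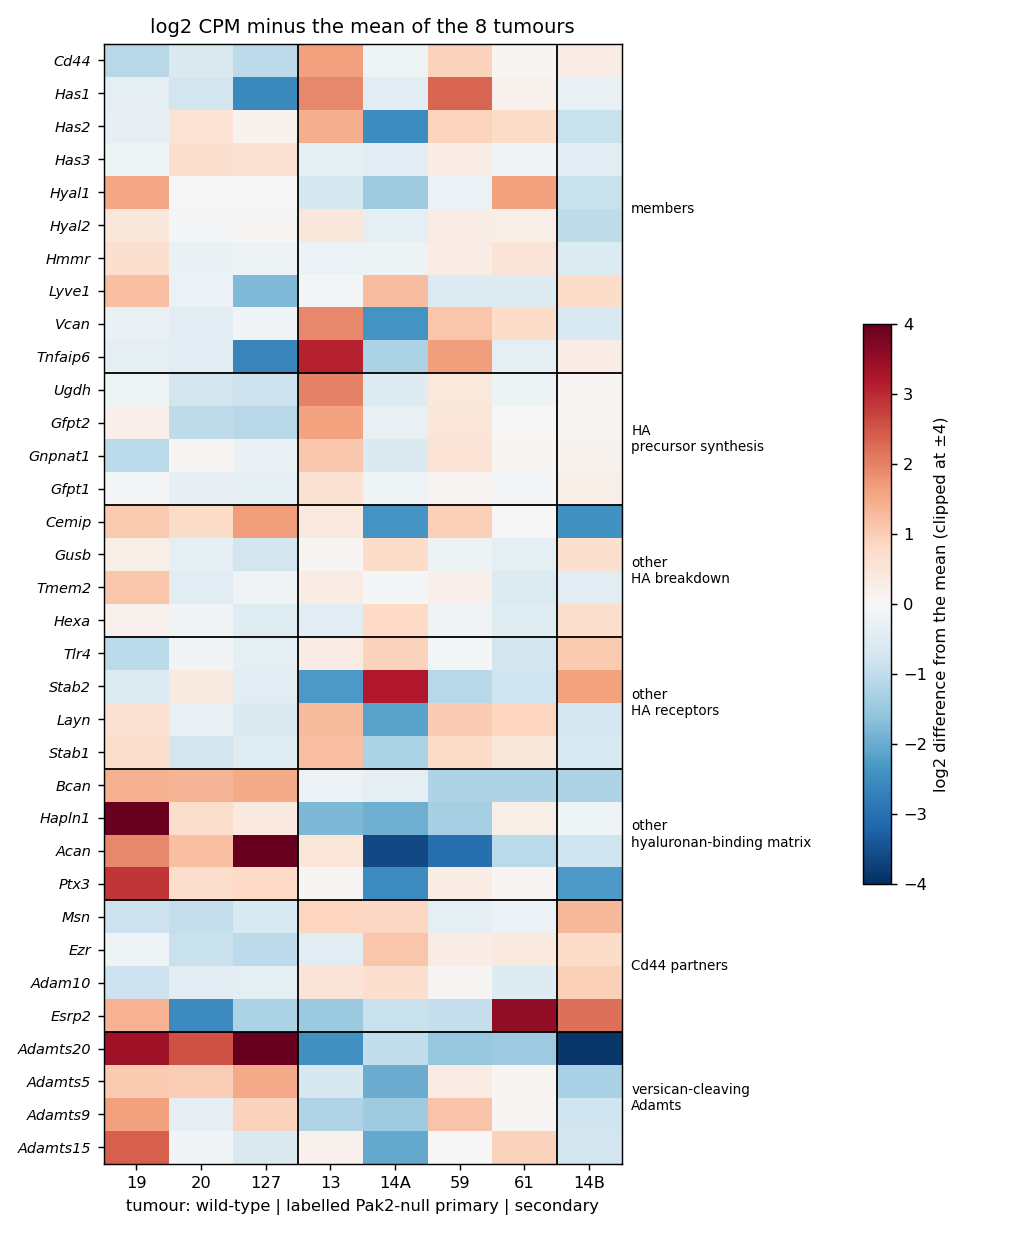
log2 CPM of each gene minus its mean over the 8 tumours, with 1 row per gene and 1 column per tumour, for the 10 members and the pathway genes named here; HA stands for hyaluronan, vertical lines separate the groups and colours stop at ±4. Tumour 13 is above the mean and 14A below it for Has2 and Vcan, and Adamts20 is high only in the 3 wild-type tumours.

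Among 10042 genes with a mean log2 CPM of 3 or more, those most like each member across the 8 tumours were found by Pearson r. Vcan was most like Dbn1 (0.990), Cdc42bpb (0.987) and Nid1 (0.987), and Has2 most like Cald1 (0.990), Mtmr11 (0.987) and Nckap1 (0.985). Dbn1 and Cald1 encode the actin-binding proteins drebrin and caldesmon, and Nid1 the basement membrane protein nidogen. For Cd44 they were Pde4a (0.977), Mex3c (0.977) and Rbpj (0.972), the last being the DNA-binding partner of Notch. For Has1 they were Ctsl (0.969), Stambpl1 (0.967) and Nr4a2 (0.963), and for Tnfaip6 Abca1 (0.963), Stard3nl (0.962) and Tnc (0.943), the gene of tenascin-C. Hmmr was most like Tbrg4 (0.986), Eif4b (0.978) and Myg1 (0.964), and Hyal1 most like Smyd3 (0.981), Npm3 (0.958) and Abt1 (0.954). For Hyal2 they were Nt5c3b (0.957), Vprbp (0.953) and Myo5a (0.952), for Lyve1 Clta (0.969), Eif4ebp2 (0.964) and Ift52 (0.961), and for Has3 Prnp (0.965), Sirt3 (0.962) and Acbd4 (0.962). Each is the top of 10042 values over 8 tumours, and is given as a description.

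The enzymes that make the UDP-sugars for hyaluronan (7 genes, all tested) had positive differences for 6 and a negative one for 1, with a median of 0.73 and none at an unadjusted p under 0.05. Ugdh, which makes UDP-glucuronic acid, was at 96.2, 65.7 and 60.8 CPM in the wild-type and at 432, 75.8, 148 and 94.4 CPM in the Pak2-null-labelled primary tumours (log2 fold change 1.37, SE 0.65, adjusted p = 0.434). As with Cd44, Has2 and Vcan, tumour 13 was its highest, and the log2 fold change was 0.53 without it. Gfpt2, an entry enzyme of the hexosamine pathway, gave 1.17 (SE 0.57, adjusted p = 0.445), also with 13 the highest at 160.3 CPM. The remaining named enzymes of that pathway, Gnpnat1 and Gfpt1, gave 0.79 and 0.41 (adjusted p = 0.521 and 0.561).

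Of 10 other breakdown genes, 5 passed the filter, 2 with positive and 3 with negative differences, a median of −0.04 and none at an unadjusted p under 0.05. Cemip, which drives hyaluronan breakdown in skin and joint fibroblasts, was at 19.7, 15.9 and 30.1 CPM in the wild-type and 12.4, 1.75, 18.2 and 9.30 CPM in the Pak2-null-labelled primary tumours. The groups overlapped through 59, and 14A was the lowest, as for Has2 (log2 fold change −1.04, SE 0.68, adjusted p = 0.569). Its relative Cemip2, listed as Tmem2, was at 41.4 to 133 CPM in the 8 tumours (log2 fold change −0.33, adjusted p = 0.784). The lysosomal enzymes Gusb and Hexa gave 0.37 and 0.17 (adjusted p = 0.711 and 0.883). Hyal3 stayed under 1 CPM, Hyal4, Hyal5 and Hyal6 had 0 counts in all wild-type tumours, and Spam1, the sperm hyaluronidase, had 0 counts in all 8.

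All 5 other receptors were tested and had positive differences, with a median of 0.74 and none at an unadjusted p under 0.05. The clearance receptors Stab1 and Stab2 gave 0.58 and 1.58 (adjusted p = 0.733 and 0.668). Stab2, a receptor of sinusoidal endothelium, was at 30.2 CPM in 14A and 9.95 CPM in 14B and at 0.557 to 4.10 CPM elsewhere, and its log2 fold change was −1.17 without 14A. Layn, which encodes layilin, was at 3.75 CPM in 14A against 31.0 to 40.5 CPM in the other Pak2-null-labelled primary tumours and 11.3 to 24.9 CPM in wild-type (log2 fold change 0.74, adjusted p = 0.708). Tlr4, which senses hyaluronan fragments among other ligands, gave 0.74 (adjusted p = 0.524).

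Other hyaluronan-binding matrix genes mostly ran the opposite way to Vcan and Tnfaip6. Of 14, 9 were tested, 8 with negative and 1 with a positive difference, with a median of −1.29. At an unadjusted p under 0.05, 4 were lower (8.55% of all genes tested), and none passed adjustment. Acan, the cartilage proteoglycan aggrecan, was at 5.38, 3.29 and 42.3 CPM in the wild-type and 1.92, 0, 0.0617 and 0.578 CPM in the Pak2-null-labelled primary tumours (log2 fold change −4.70, SE 1.57, adjusted p = 0.256). Hapln1, the link protein that locks such proteoglycans onto hyaluronan, was at 16.7, 1.61 and 1.28 CPM against 0.186, 0.154, 0.309 and 1.16 CPM (−3.83, SE 1.18, adjusted p = 0.209). Without tumour 19 its value was −1.66, and without 127 that of Acan was −2.75. Ptx3, a pentraxin that works with TSG-6 in building the hyaluronan matrix around the oocyte, was at 70.0, 15.6 and 16.8 CPM against 9.91, 1.59, 11.9 and 10.2 CPM (log2 fold change −2.001, SE 0.78, adjusted p = 0.342), and −0.94 without tumour 19. Bcan, brevican, was under 1 CPM in all tumours (−3.35, adjusted p = 0.180). In each of these 4 genes the primary groups did not overlap, and in the rest of the 9 tested they did. Over all genes, 8.93% did not overlap with the Pak2-null-labelled tumours lower. The 4 were named for their low p in the same fit, so their lack of overlap is no separate evidence.

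Genes that act with the Cd44 protein (12, all tested) had positive differences for 10 and negative for 2, with a median of 0.84. At an unadjusted p under 0.05, 3 were higher (4.39% of all genes) and none passed adjustment. Msn, moesin, which ties the Cd44 tail to actin, was at 516, 471 and 593 CPM in the wild-type and 1633, 1617, 703 and 774 CPM in the Pak2-null-labelled primary tumours. These groups did not overlap (log2 fold change 1.19, SE 0.42, adjusted p = 0.286). Ezr, ezrin, was at 106, 65.1 and 58.0 CPM against 88.5, 257, 148 and 159 CPM, overlapping through 13 (1.11, SE 0.41, adjusted p = 0.306). Adam10, which sheds the Cd44 ectodomain, gave 0.82 (SE 0.34, adjusted p = 0.368). Unlike Cd44, which was lowest of its group in 14A, Ezr and Adam10 were highest there, at 257 and 288 CPM, and moesin nearly so. These genes are abundant in leukocytes, whose markers were highest in 14A. In tumour 13 those markers, which leave out the macrophage list, summed to the least, at 81.7 CPM. The macrophage markers summed to 3216 CPM in 13, against 1233 to 2828 CPM in the wild-type tumours. Msn was at 1633 CPM in 13. Adam10 was at 257 CPM there, and Ezr, at 88.5 CPM, was the lowest of its group. The part of leukocytes was not tested. Esrp2, a splicing factor that favours Cd44 variant exons, was at 0.435 to 8.48 CPM in wild-type and 1.05 to 37.9 CPM in Pak2-null-labelled primary tumours, with the highest value in 61 (1.64, SE 1.60, adjusted p = 0.708).

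All 6 Adamts proteases known to cleave versican were tested and had negative differences, with a median of −1.01, opposite in sign to Vcan. Adamts20 fell: it was at 34.9, 19.4 and 64.6 CPM in tumours 19, 20 and 127 and at 0.495, 1.54, 1.05 and 1.10 CPM in 13, 14A, 59 and 61. In 14B it had 1 count, or 0.104 CPM, under the 0.311 CPM that 3 counts make there, so its rank below the others is not resolved. The log2 fold change was −5.21 (SE 0.56, adjusted p = 0.0436). The adjusted p was above 0.05 under 8 of 15 other settings, 6 of which left out 1 tumour (20, 127, 13, 14A, 59 or 61), and it reached 0.206 without 59, while the fold change stayed between −5.54 and −4.68. Adamts5 was at 129, 123 and 179.8 CPM against 39.9, 15.8, 79.1 and 65.7 CPM, with no overlap (−1.50, SE 0.51, adjusted p = 0.261). Adamts9 and Adamts15 gave −0.92 and −1.10 (adjusted p = 0.632 and 0.635). The skeletal muscle markers given above were also higher in all 3 wild-type tumours, at 1833, 19235 and 15809 CPM in 19, 20 and 127. The muscle markers differed among themselves. Ttn and Neb were highest in 127, and Acta1, Ckm, Mylpf and Tnni2 in 20, and each was lowest of the wild-type tumours in 19. Acta1 alone was at 9190 CPM in 20. Among these 3 tumours Hapln1 was highest in 19, while Acan, Adamts20 and Adamts5 were highest in 127 and lowest in 20. The part of muscle in the values of Acan, Hapln1, Adamts20 and Adamts5 was not tested.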

How the data were processed

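Bulk RNA sequencing measured 8 tumours. Per the labels' protocols, column-purified total RNA went into mRNA-enriched, PCR-amplified Illumina libraries. The authors deposited raw read counts per gene, 1 column per tumour with none pooled. STAR, HTSeq and the builds GRCm38 and mm10 are named per the submitters' processing notes. Versions, annotation release and strand setting were not given in the sources used here.

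The 7 primary tumours were compared with edgeR 4.0.16 in R 4.3.3 (TMM, filterByExpr with a minimum count of 10, quasi-likelihood F test, no covariate), and p-values were adjusted over all genes tested. The SE is the absolute log2 fold change divided by the root of F. limma 3.58.1, DESeq2 1.42.0, other size factors, no filter, all 8 tumours and leaving out each tumour were alternatives. Tools were tested on simulated data. CPM per kilobase used the deposited gene length. Log2 CPM used a prior count of 2.

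Beside the 10 members, the text names up to 4 genes of lowest p in each pathway list, and any called. It also names the 3 genes most like each member, Pak2 and Nf2 to set beside the labels, and markers beside a member. The members and lists were chosen with earlier results of these data known, so no list is independent evidence of its direction.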

Additional observations from a re-analysis of the deposited data

Results flagged for a closer look

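Lyve1 in tumour 14A, at 86.1 CPM, was flagged as standing far from the other 3 primary tumours labelled Pak2-null, at 34.5, 24.7 and 25.5 CPM. The gap to the next tumour was 0.840 of the range of the group, and the limit for 4 samples is 0.829. The highest and lowest tumours of the 4 were examined for 10 genes, and chance flags about 1 in 20 such groups.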

How the results depend on the processing

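No paired analysis was possible because the groups compared share no replicate number. Of the members' log2 fold changes under 15 other settings, 128 had the same direction and side of the threshold, 19 reversed and 3 passed the threshold. The members called numbered 2 with DESeq2 and 1 with limma-voom with quality weights, against 0 in edgeR and in limma-voom, and 0 whichever tumour was left out. Over all genes, 11 were called, against 1196 with DESeq2, 25 with limma-voom, 950 with quality weights, 4 with all 8 tumours fitted, and 0 to 59 with 1 tumour left out. The cause was not tested. At an unadjusted p the members numbered 2, and 1 to 5 with 1 tumour left out, with 5 only without 14A. The counts at an unadjusted p, and the Has1 share without length scaling (21.9 points) or with a tumour left out, were added after seeing the data.

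The cause of the reversals was not tested. With upper-quartile factors Hyal2, Hmmr and Lyve1 gave −0.00634, −0.00905 and −0.00377, with library size only −0.0164, −0.0146 and −0.0345, and with limma-voom Hyal2 gave −0.00155. With 1 tumour left out, Hyal1 ranged from −1.46 to 0.28, Hyal2 from −0.0774 to 0.18, Hmmr from −0.14 to 0.36 and Lyve1 from −0.54 to 1.03. Among the pathway genes, 335 comparisons were the same, 10 reversed, 8 lost the call and 4 gained it. With quality weights Tmem2 gave 0.23, Stab2 −1.01, Adamts9 0.16 and Adamts15 0.21. With 1 tumour left out, Tmem2 ranged from −0.60 to 0.29, Hexa from −0.21 to 0.32, Stab2 from −1.17 to 1.98, Esrp2 from −1.24 to 3.67 and Adamts15 from −1.55 to 0.42. Set against the mean of the 4 primary tumours labelled Pak2-null, in place of 14A, tumour 14B gave log2 differences of −1.29 for Has1, −1.04 for Has2, −1.16 for Hyal2, 0.70 for Lyve1, −0.96 for Vcan and −0.48 for Tnfaip6. Depth limits Has3, with 11 to 40 counts per tumour.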

Other observations

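Has2os, an antisense transcript that overlaps Has2, had 30, 51 and 61 counts in tumours 19, 20 and 127, and 32, 4, 31 and 29 counts in tumours 13, 14A, 59 and 61. Both were lowest in 14A among the primary tumours, and without a stated strand setting their reads cannot be told apart.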
